A study of Mus musculus with 8 samples.

Results

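The Rab GTPases are the largest branch of the Ras superfamily, and their transcripts were followed here in cultured mouse macrophages. Members were taken by name: every gene symbol in the deposited tables made of Rab, a number and at most a letter and a further digit, which gave 58 genes among the 23354 symbols. That rule uses names and no measured values, although it was set with earlier results of these data known. By their best-known site of action, 22 were classed as endosomal, 27 as secretory (endoplasmic reticulum, Golgi, exocytosis) and 9 as other. Of the 58, 42 reached 1 FPKM (fragments scaled by transcript length and library depth, the authors' unit) in at least 2 libraries and were tested: 18 endosomal, 18 secretory and 6 other.

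A Rab protein works as a switch. Bound to GTP it sits on a membrane and recruits effectors that move, tether or fuse vesicles, and bound to GDP it is drawn off the membrane. Exchange factors (GEFs) load GTP, GTPase-activating proteins (GAPs) speed its hydrolysis, and a GDP dissociation inhibitor and a prenyl transferase serve the membrane cycle. In macrophages this traffic carries phagosomes and macropinosomes towards the lysosome, returns receptors to the surface and brings secreted proteins out through the Golgi.

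The cells were bone marrow-derived macrophages of 8-week-old mice whose strain is given as C57BL/6J, differentiated over 7 days with L929-conditioned medium, a source of macrophage growth factor. All mice carried a floxed Ern1 gene, which encodes the endoplasmic reticulum stress sensor IRE1α. The group called Ern1f/f had the floxed alleles alone, and the group called Ern1f/fLyz2-Cre also had Cre recombinase from Lyz2, a gene that myeloid cells express. Cells of each genotype were left as controls or given the cytokine IL-4 at 20 ng/ml for 24 hours, and each of the 4 groups had 2 libraries, numbered 1 and 2. The labels do not say that these 2 came from separate mice or cultures, so the spread between them may be technical. The main fits take out the shift between the numbers that all groups share. Their p-values measure the spread of the libraries that remains. The title set each library's group. A separate genotype label tracks the replicate number (Ern1f/f for 1, Ern1f/fLyz2-Cre for 2) and so disagrees with 4 of the 8 titles.

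Depth, read from the width of the deposited confidence intervals, was 21500000 to 37900000 fragments per library. All 8 macrophage markers reached 1 FPKM in at least 2 libraries, while dendritic cell, lymphocyte, mast cell and neutrophil markers did not. Summed fibroblast and stromal markers were at 133 to 799 FPKM in the libraries numbered 1 and at 3.66 to 14.7 FPKM in those numbered 2. Within each number they were lower with IL-4 in both genotypes. Lyz2 was lower in the libraries titled Cre within each number and treatment. Gene-level values do not show the loss of an exon, so Ern1 does not check the deletion. In number 1 Ern1 was at 11.5 (control) and 10.2 FPKM (IL-4) in Ern1f/f and at 14.3 and 7.43 in Ern1f/fLyz2-Cre, and in number 2 at 9.55 and 9.11 and at 12.7 and 10.98, so it was higher in the control libraries titled Cre of both numbers. IL-4 raised Arg1, a marker of alternative activation, by 5.83 ± 0.16 (SE) on the log2(FPKM + 1) scale (adjusted p = 4.7e-05).

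Rab7, which brings late endosomes and phagosomes to the lysosome, had the highest level of the family, with a mean of 415 FPKM over the 8 libraries and a range of 359 to 506. It made up 21.2% to 28.2% of all Rab FPKM in a library. By the width of its confidence intervals it rests on 3933 to 7108 fragments per library, beside 8528 to 14012 for Rab5c. If these widths give the fragments, its rank depends on the length by which they were scaled. That reading was checked only on genes under 60 fragments. Next among the endosomal genes were Rab5c, an early endosome fusion factor, with a mean of 221 FPKM (189 to 233), and Rab14, which acts on early endosomes, the Golgi and phagosomes, with 75.3 FPKM (64.1 to 83.3). The libraries' ranges of these 3 genes did not overlap. Among the secretory genes the order was Rab1b at 126 FPKM (108 to 137), Rab1 at 72.9 FPKM (55.2 to 91.6) and Rab10 at 63.9 FPKM (48.4 to 78.9). Rab1b and Rab1 (now Rab1a) serve transport from the endoplasmic reticulum to the Golgi, and Rab10 serves transport from the Golgi to the plasma membrane. The ranges of Rab14, Rab1 and Rab10 overlapped, so their order is within the spread of the libraries. In the third class Rab32, of lysosome-related organelles, averaged 47.2 FPKM (23.8 to 102), Rab7l1 (now Rab29) 17.6 FPKM (14.9 to 20.6) and the cilium-associated Rab28 12.5 FPKM (11.2 to 15.2). The top 5 genes, Rab7, Rab5c, Rab1b, Rab14 and Rab1, held 50.1% to 55.7% of Rab FPKM and the top 10 held 66.3% to 70.7%.

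Levels of most of the tested genes were steady. The highest library stood above the lowest by a median ratio of 1.47 over the 42 genes, from 1.15 for the Golgi gene Rab6a to 10.5 for the recycling gene Rab4a. Of the 16 genes not tested, 14 stayed under 1 FPKM in every library, among them Rab17 and Rab25 of epithelial recycling, Rab3b and Rab3c of regulated exocytosis and Rab27b of secretory granules. Rab9b was listed at 0 throughout. Rab42 reached 1.21 FPKM and Rab33a 1.18 FPKM, each in a single library.

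**Figure D1:**
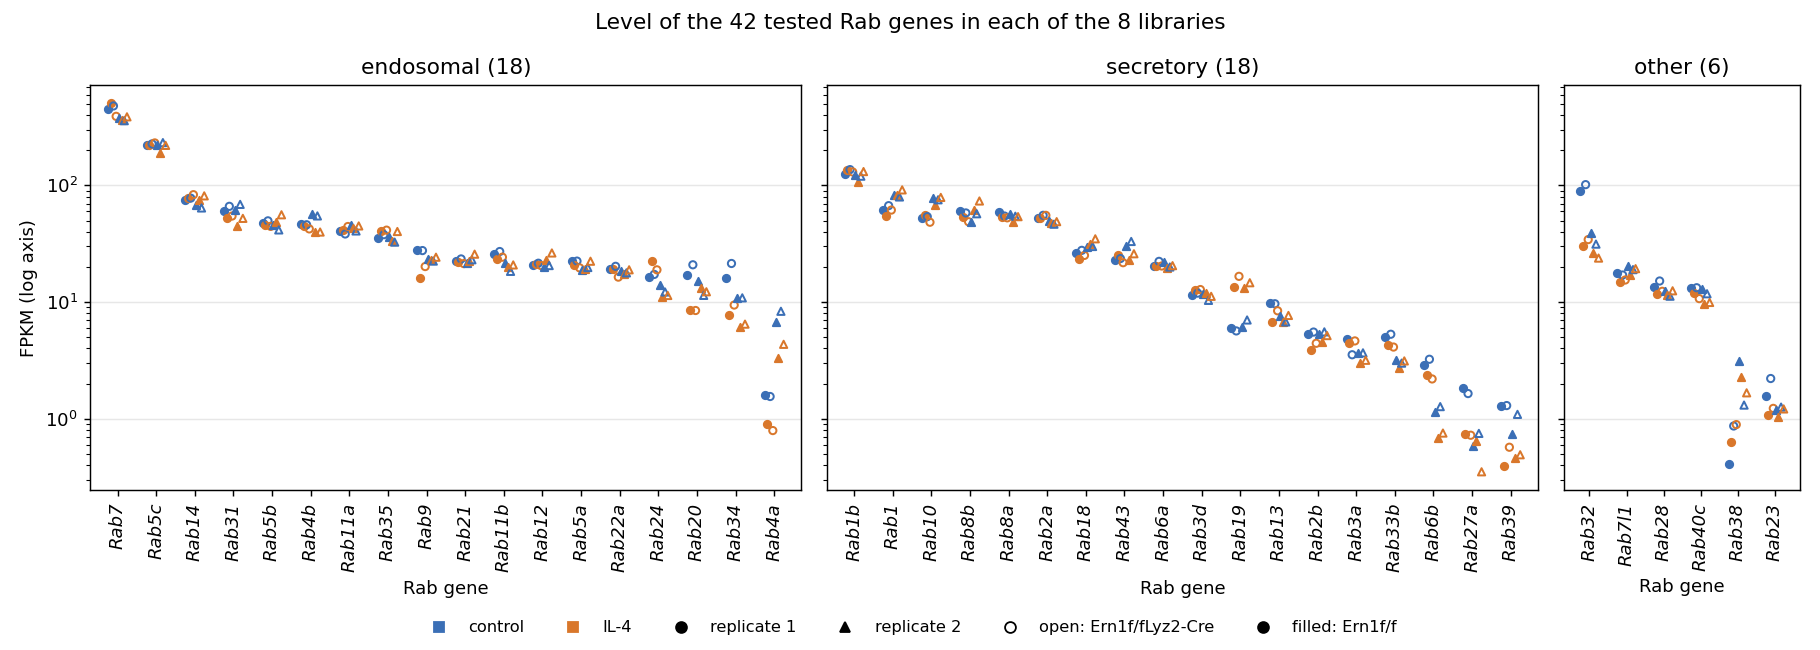
FPKM (log axis) of the 42 tested Rab genes in each of the 8 libraries, by class and in order of mean level; colour marks treatment, shape the replicate number and fill the genotype. Rab7 stands highest, between 359 and 506 FPKM, and the libraries lie close together for most genes but far apart for Rab4a, Rab38, Rab27a, Rab6b and Rab32.

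Close relatives differed in level, and some of their ratios differed between the replicate numbers. Among the 3 Rab5 genes, Rab5c was at 3.91 to 5.61 times the FPKM of Rab5b and 9.85 to 11.8 times that of Rab5a. Rab1b exceeded Rab1 by a ratio of 2.04 to 2.46 in the libraries numbered 1 and 1.3 to 1.51 in those numbered 2. Rab4b, which like Rab4a serves fast recycling, exceeded Rab4a by a ratio of 29.5 to 53.6 in number 1 and 6.57 to 12.1 in number 2. The ratio of Rab6a to Rab6b was 6.91 to 9.30 in number 1 and 15.7 to 28.6 in number 2. A ratio that parted the treatments was that of Rab43 to Rab19, both Golgi genes: it was 3.83 to 4.96 in control cells and 1.31 to 1.85 with IL-4. FPKM is scaled by length, but how the authors' counting shared reads between such copies is not stated, so these ratios are uncertain.

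A few Rab transcripts differed with IL-4 in the main fit, and of these only Rab19 was also called without the replicate number in the fit. Rab19, a Golgi Rab, rose in both genotypes, while Rab34 (macropinosomes, lysosome position), Rab32, Rab4a, Rab39 (Golgi) and Rab31 (Golgi to endosome transport) fell. With the replicate number as a block in a limma fit over all 10934 tested genes, these 6 of 42 Rab genes (14.3%) had an adjusted p under 0.05 for IL-4 averaged over the genotypes, beside 12.7% of all tested genes, a share near the background. The 1 higher gene stands beside 5.88% of all genes higher and the 5 lower beside 6.86% lower, and 12 of 42 had an unadjusted p under 0.05, beside 30% of all genes. They were 3 of 18 endosomal, 2 of 18 secretory and 1 of 6 other genes. The median difference was -0.065 on the log2(FPKM + 1) scale, beside -0.027 over all genes. Without the block, 1 Rab gene, Rab19, was called, beside 0.841% of all genes.

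In the libraries numbered 1, Rab19 was at 5.96 FPKM in Ern1f/f control cells and 13.6 with IL-4, and at 5.65 and 16.6 in Ern1f/fLyz2-Cre cells. In those numbered 2 it was at 6.09 and 13.1 FPKM in Ern1f/f and at 7.02 and 14.6 in Ern1f/fLyz2-Cre. All 4 IL-4 libraries lay above all 4 control libraries. The difference was 1.11 ± 0.09 (SE) on the log2(FPKM + 1) scale (adjusted p = 0.00173, and 0.0114 without the block), and was 1.23 in number 1 and 0.98 in number 2. Of 5 megakaryocyte and platelet markers, 3 reached 1 FPKM in 2 libraries. Only Pf4 rose with IL-4 in all 4 pairs, and Ppbp, Itga2b, Gp9 and Gp1bb each fell in at least 1. In number 1 the sum of the 5, most of it Pf4, went with IL-4 from 82.8 to 154 FPKM in Ern1f/f and from 167 to 203 in Ern1f/fLyz2-Cre. In number 2 it went from 147 to 200 and from 151 to 229. The markers' part in the Rab19 result was not tested. Rab19 lies at chr6:39381428-39390379 (mm10) and, like the other 5 called genes, has no exon overlapping another gene of the GENCODE annotation, as 20 of the 58 members do.

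Rab34 was at 15.9 and 7.69 FPKM in control and IL-4 Ern1f/f cells of number 1, and at 21.4 and 9.43 in Ern1f/fLyz2-Cre. In number 2 it was at 10.9 and 6.06 FPKM in Ern1f/f and at 10.9 and 6.47 in Ern1f/fLyz2-Cre. Every control library was above every IL-4 library. The difference was -0.87 ± 0.11 (SE) in log2(FPKM + 1), with an adjusted p of 0.0062 (0.210 without the block).

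Rab32 was at 90.5 and 30.1 FPKM in control and IL-4 Ern1f/f cells of number 1 and at 102 and 34.3 in Ern1f/fLyz2-Cre. In number 2 the values were 39.3 and 26.5 FPKM in Ern1f/f and 31.4 and 23.8 in Ern1f/fLyz2-Cre. Both numbers had less with IL-4, but the 2 treatments overlapped once the numbers were pooled. The difference of -1.01 ± 0.24 (SE) in log2(FPKM + 1) (adjusted p = 0.0404, and 0.391 without the block) averaged -1.55 in number 1 and -0.47 in number 2. Summed fibroblast and stromal markers moved the same way as all 5 genes that fell in number 1, from 313 to 133 FPKM in Ern1f/f and from 799 to 368 in Ern1f/fLyz2-Cre. In number 2 they were at 14.7 and 12.3 FPKM and at 5.91 and 3.66, and the 5 genes were lower with IL-4 there too. The markers' part in these results was not tested. These are bulk samples, in which fewer cells of a type and less RNA per cell cannot be told apart.

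Rab4a, of fast recycling from early endosomes, was at 1.59 and 0.899 FPKM in control and IL-4 Ern1f/f cells of number 1 and at 1.55 and 0.791 in Ern1f/fLyz2-Cre. In number 2 it was at 6.77 and 3.31 FPKM and at 8.33 and 4.34 FPKM. IL-4 went with the lower value in all 4 pairs, although each number 2 library exceeded each number 1 library. The difference was -0.65 ± 0.12 (SE) in log2(FPKM + 1) (adjusted p = 0.0202, and 0.754 without the block). These levels rest on 40 to 300 fragments per library. Rab39 was lower still, at 1.27 and 0.391 FPKM in Ern1f/f and 1.3 and 0.569 in Ern1f/fLyz2-Cre of number 1, and at 0.740 and 0.457 and at 1.09 and 0.490 in number 2. No control library of Rab39 overlapped an IL-4 library, and the difference was -0.50 ± 0.12 (SE) in log2(FPKM + 1) (adjusted p = 0.0416, and 0.201 without the block). Rab31 had the smallest of the called changes: it went from 60.2 to 52.2 FPKM in Ern1f/f and from 66.2 to 54.7 in Ern1f/fLyz2-Cre of number 1, and from 61.5 to 44.6 and from 68.8 to 52.2 in number 2. Its treatments did not overlap either, with a difference of -0.33 ± 0.08 (SE) in log2(FPKM + 1) (adjusted p = 0.0471, and 0.197 without the block).

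**Figure D2:**
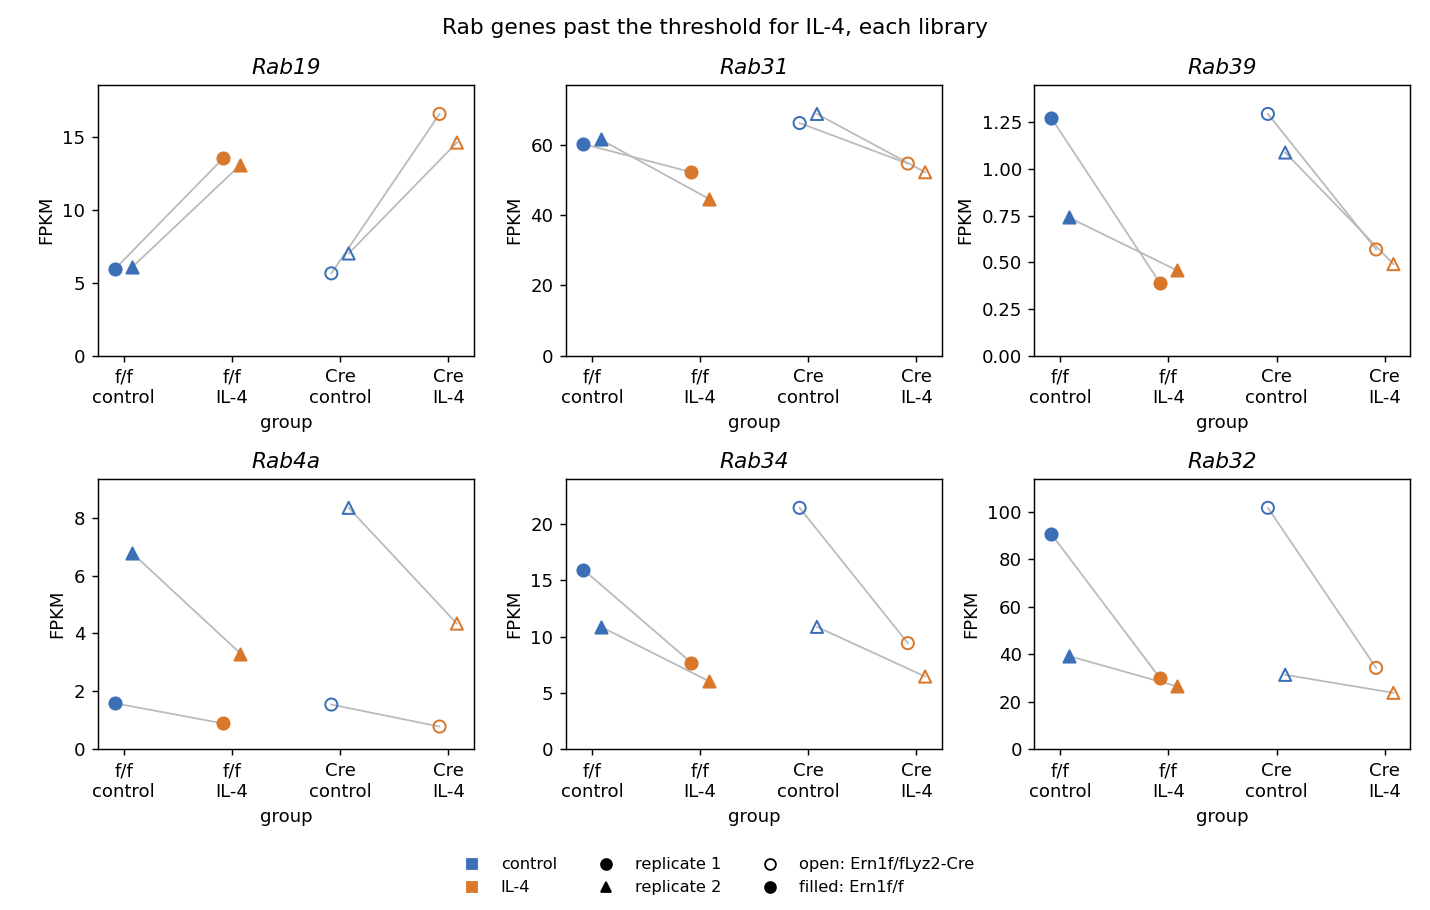
FPKM in each library of the 6 Rab genes with an adjusted p under 0.05 for IL-4; f/f is Ern1f/f, Cre is Ern1f/fLyz2-Cre, and each line joins control and IL-4 libraries of the same genotype and number. Rab19 goes from 5.65 to 7.02 FPKM in control cells to 13.1 to 16.6 with IL-4, and each of the other 5 genes is lower with IL-4 in every pair.

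Only Rab19 and Rab34 kept their calls when any 1 of the 8 libraries was left out. No other Rab gene was called without Ern1f/f control 1, Ern1f/fLyz2-Cre IL-4 1, Ern1f/f control 2 or Ern1f/fLyz2-Cre IL-4 2, which left 2 of the 6. The difference of Rab4a ranged from -0.78 to -0.53 over the 8 fits. Over these fits the difference of Rab32 ranged from -1.27 to -0.75, and its adjusted p from 0.0164 to 0.164. Rab31 and Rab39 lost their calls in all 8 fits, with adjusted p from 0.0736 to 0.136 and from 0.0638 to 0.177. With all 8 libraries, a pseudocount of 5 took the adjusted p of Rab31 to 0.0507, of Rab32 to 0.0518 and of Rab4a to 0.0569. That of Rab31 was also 0.0532 under median-of-ratios scaling and 0.0506 without a trend in the variance, and that of Rab32 was 0.0519 under upper-quartile scaling. With no filter on low values, that of Rab31, Rab32, Rab39 and Rab4a ran from 0.0517 to 0.122.

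The groups of 4 libraries did not overlap for Rab19 on the higher side, beside 6.98% of all tested genes. On the lower side they did not overlap for Rab31, Rab34, Rab39, Rab4b, Rab2b and Rab8a, 6 of 42 genes, beside 7.23% of all. Rab4b, which shares exons with a gene on the same strand, was at 46.0 to 57.2 FPKM in control cells and 39.9 to 44.5 with IL-4. Rab8a, of transport from the Golgi to the plasma membrane, was at 54.5 to 58.8 and 48.2 to 54.0 FPKM. Just outside the threshold lay Rab6b, a Golgi Rab, with -0.34 ± 0.09 (SE) in log2(FPKM + 1) and an adjusted p of 0.0537. Rab6b was called under upper-quartile scaling, under median-of-ratios scaling and without a trend in the variance. Rab20, of phagosome maturation, had -0.56 ± 0.23 (adjusted p = 0.164). It was at 17.1 and 8.52 FPKM, then 20.9 and 8.46, in the control and IL-4 pairs of number 1, and at 15.0 and 13.1, then 11.4 and 12.3, in number 2. Next to Rab19, the largest positive differences with 1 sign in both numbers were those of Rab14 (0.16 ± 0.08, adjusted p = 0.230) and Rab35, of fast recycling to the plasma membrane (0.13 ± 0.08, adjusted p = 0.351). Neither passed the threshold. Rab35 was at 35.1 and 40.6 FPKM, then 37.8 and 41.4, in the pairs of number 1, and at 36.0 and 33.4, then 32.7 and 40.3, in number 2. Over all 42 genes, 6 were higher and 18 lower with IL-4 in both numbers (14.3% and 42.9%), beside 29.1% and 37.4% of all genes.

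**Figure D3:**
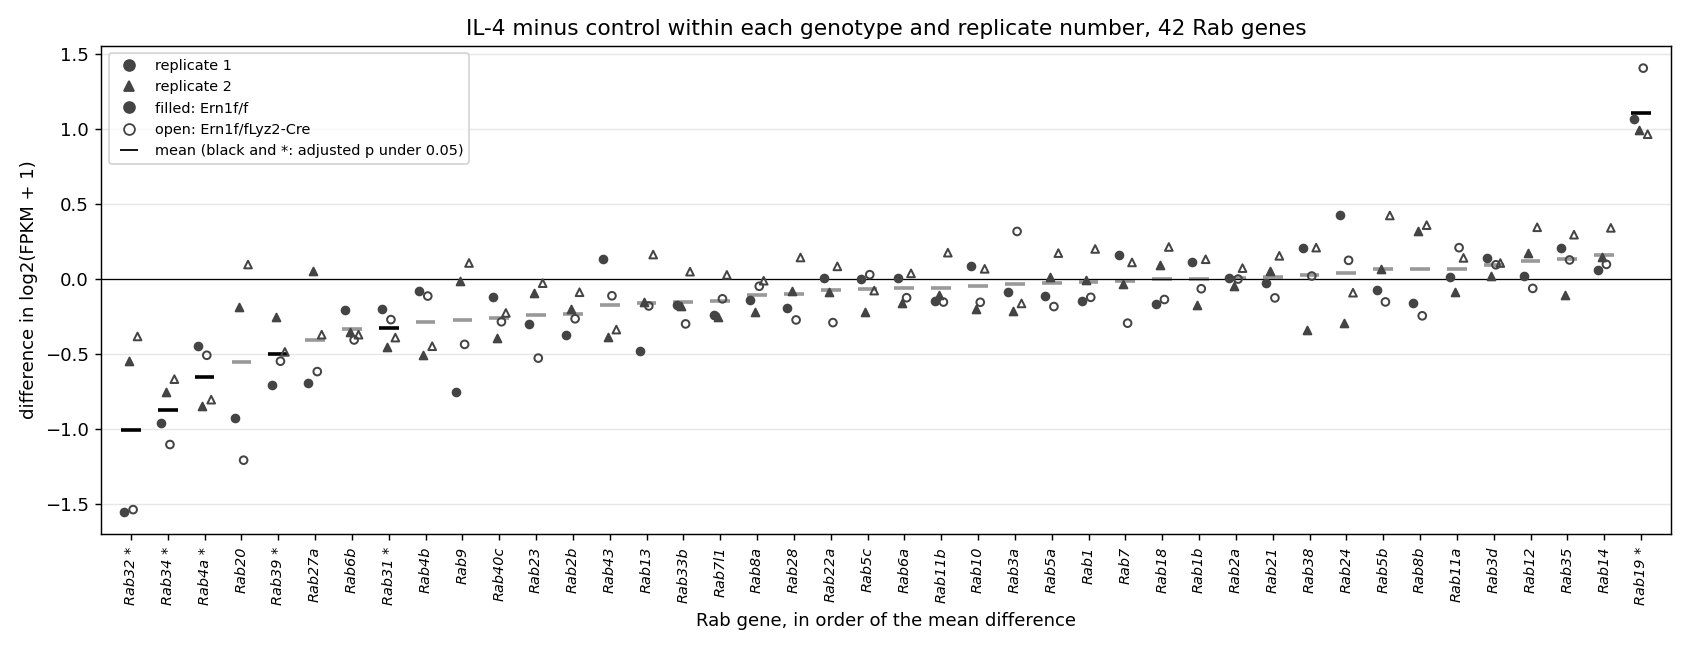
Difference in log2(FPKM + 1) between IL-4 and control for the 42 tested Rab genes, 1 point per genotype and replicate number, ordered by the mean (bar; black with an asterisk where the adjusted p is under 0.05). Rab19 stands alone on the right at 1.11, while Rab32, Rab34 and Rab4a lie on the left at -1.01, -0.87 and -0.65.

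Within each genotype fewer genes were called. In Ern1f/f cells Rab19 rose by 1.03 ± 0.13 (SE) in log2(FPKM + 1) (adjusted p = 0.0180) and was the 1 Rab gene of 42 called, beside 2.12% of all tested genes (1.26% higher and 0.86% lower). In Ern1f/fLyz2-Cre cells Rab19 rose by 1.18 ± 0.13 (adjusted p = 0.0101) and Rab34 had a difference of -0.89 ± 0.16 (adjusted p = 0.0391), 2 of 42 beside 3.32% of all genes (1.79% higher and 1.53% lower). Rab34 had -0.86 ± 0.16 in Ern1f/f cells (adjusted p = 0.0509), and the difference between the genotypes in its response was -0.03 (95% interval -0.56 to 0.50). Rab32 had -1.05 ± 0.33 in Ern1f/f (adjusted p = 0.184) and -0.96 ± 0.33 in Ern1f/fLyz2-Cre (adjusted p = 0.168). For Rab4a these values were -0.65 ± 0.17 (adjusted p = 0.124) and -0.66 ± 0.17 (adjusted p = 0.0965). The positive differences next in size were those of Rab14 (0.10) and Rab12 (0.10), a Rab of transport from recycling endosomes to lysosomes, in Ern1f/f, and of Rab14 (0.22) and Rab35 (0.21) in Ern1f/fLyz2-Cre. Their adjusted p ran from 0.315 to 0.778. Without the block no Rab gene was called in either genotype, beside 0% and 0.0549% of all genes, and the adjusted p of Rab19 was then 0.106 and 0.061. Rab19 lost its call in Ern1f/f cells without either of the control or IL-4 libraries of that genotype. In Ern1f/fLyz2-Cre cells no Rab gene was called without Ern1f/fLyz2-Cre control 1, IL-4 1 or IL-4 2, and Rab34 alone lost its call without Ern1f/f control 1 or 2.

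The IL-4 difference was also compared between the replicate numbers, in a fit added after the data were seen. No Rab gene passed an adjusted p of 0.05, beside 0.787% of all genes, and 8 of 42 had an unadjusted p under 0.05, beside 16.8% of all genes. Rab32 was nearest: its difference was less negative in number 2 by 1.08 ± 0.20 (SE) in log2(FPKM + 1) (adjusted p = 0.0655). Rab20 followed with 1.02 ± 0.21 (adjusted p = 0.0833), its mean IL-4 difference being -1.07 in number 1 and -0.04 in number 2. Rab9, of transport from late endosomes to the Golgi, came next with 0.64 ± 0.16 (adjusted p = 0.123). With the libraries of number 2 alone, 10 of 42 Rab genes (23.8%) were called for IL-4, beside 21.9% of all genes, among them Rab19, Rab31, Rab32, Rab34, Rab39 and Rab4a. With those of number 1 alone 9 (21.4%) were called, beside 28.3% of all, among them these except Rab31.

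Promoter windows of 3 called genes are shown because these genes had the largest called differences on the log2(FPKM + 1) scale. They come from the RefSeq promoter table (GRCm38.p6, the mm10 assembly). With a pseudocount of 0.1, Rab39 had a difference of -1.04, beside -1.03 for Rab32 and -0.95 for Rab34. Each window runs 5′ to 3′ on the gene's strand, with motif matches in capitals. The Rab34 and Rab32 windows cross the start of the gene in the deposited coordinates, while the Rab19 window ends before it. The Rab19 window is chr6:39381103-39381402 on the plus strand, and its capitals mark a STAT-type match. The Rab34 window, chr11:78188177-78188476 on the plus strand, has a STAT-type and then an AP-1 match in capitals. The Rab32 window is chr10:10558158-10558457 on the minus strand, and its capitals mark a PU.1-type match.
Rab19: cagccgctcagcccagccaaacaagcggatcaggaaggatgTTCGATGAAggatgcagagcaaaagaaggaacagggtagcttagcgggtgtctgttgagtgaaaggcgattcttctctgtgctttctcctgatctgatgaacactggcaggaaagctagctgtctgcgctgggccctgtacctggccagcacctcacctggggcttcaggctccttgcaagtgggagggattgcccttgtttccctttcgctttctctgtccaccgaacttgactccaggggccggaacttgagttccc
Rab34: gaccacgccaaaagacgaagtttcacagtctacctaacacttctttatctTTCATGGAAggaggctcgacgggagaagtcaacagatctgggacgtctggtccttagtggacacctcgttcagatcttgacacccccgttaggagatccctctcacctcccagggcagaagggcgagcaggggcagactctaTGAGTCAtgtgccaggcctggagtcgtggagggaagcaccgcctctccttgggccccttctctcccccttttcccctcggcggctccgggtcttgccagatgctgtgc
Rab32: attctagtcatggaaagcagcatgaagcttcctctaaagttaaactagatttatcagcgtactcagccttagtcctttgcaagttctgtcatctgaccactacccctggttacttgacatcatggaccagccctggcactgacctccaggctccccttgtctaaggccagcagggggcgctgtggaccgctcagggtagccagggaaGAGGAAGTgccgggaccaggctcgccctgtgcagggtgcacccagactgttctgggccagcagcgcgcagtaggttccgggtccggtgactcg

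Motifs were searched on both strands in the 60 windows of the 48 Rab genes in that table and in all 32851 windows. The STAT-type motif TTCNNNGAA was in 5 Rab windows (8.33%), those of Rab11a, Rab15, Rab19, Rab25 and Rab34, beside 8.30% of all windows. The STAT6-type motif, with the same ends and a spacer longer by 1 base, named for the factor downstream of the IL-4 receptor, was in 3 (5%; Rab11b, Rab15 and Rab5b), beside 6.95% of all. The AP-1 motif TGANTCA was in 3 (5%; Rab15, Rab34 and Rab39b), beside 7.81%. The PU.1-type motif GAGGAAGT was in 2 (3.33%; Rab2b and Rab32), beside 3.20%, and the E-box CACGTG in 6 (10%), beside 7.15%. A match is a run of letters in these windows and not a shown binding site.

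No Rab gene was called between the genotypes by title. In the limma fit with the block, 0 of 42 had an adjusted p under 0.05 averaged over treatments (background 0%), in control cells (0%) or with IL-4 (0.00915%, a single gene of 10934 that is no Rab). No Rab gene had an unadjusted p under 0.05 in any of these, with or without the block. For all tested genes the unadjusted share with the block was 2.04%, 1.25% and 1.73%. The 95% intervals of the averaged differences had a median half-width of 0.22 in log2(FPKM + 1), from 0.17 to 0.57. Within a treatment the median half-width was 0.31. No Rab gene's averaged difference exceeded 0.19 in size. In the same limma fit Lyz2 had an averaged difference of -1.82 ± 0.46 (SE) and an adjusted p of 0.9998. The lack of a call therefore does not show that a gene was alike in the genotypes.

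Averaged over treatments, the largest differences with 1 sign in both numbers were those of Rab34 at 0.19 (95% interval -0.08 to 0.45), Rab23 at 0.15 (-0.14 to 0.43) and Rab31 at 0.14 (-0.05 to 0.34). With 1 library left out they ranged from 0.064 to 0.31, from 0.044 to 0.25 and from 0.088 to 0.20, and none was called. Rab23 acts in hedgehog signalling at the cilium. Among genes with 1 sign in both numbers, the lowest were Rab24, of autophagy, at -0.08 and Rab27a, of lysosome-related organelle exocytosis, at -0.06. Rab40c, a SOCS box Rab, followed at -0.05. In both numbers 19 of 42 genes were higher in Ern1f/fLyz2-Cre and 4 lower (45.2% and 9.52%), beside 23.3% and 20.3% of all genes. Rab34 was higher in Ern1f/fLyz2-Cre control cells of number 1 (21.4 against 15.9 FPKM) and at 10.9 FPKM in both genotypes of number 2. Rab23 was at 1.56 and 2.21 FPKM in number 1 control cells of Ern1f/f and Ern1f/fLyz2-Cre, and at 1.18 and 1.26 in number 2. With IL-4 it was at 1.08 and 1.23 FPKM, and at 1.03 and 1.21. Fibroblast and stromal markers were higher in Ern1f/fLyz2-Cre in number 1 (799 against 313 FPKM in control cells) and lower in number 2 (5.91 against 14.7). Their part in the Rab34 and Rab23 values was not tested.

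In control cells the differences picked by the same rule were those of Rab23 (0.19), Rab31 (0.15), Rab39 (0.14), Rab11a of slow recycling (-0.13), Rab13 of transport to the plasma membrane (-0.09) and Rab7l1 (-0.08). Rab11a was at 40.7 and 38.4 FPKM in Ern1f/f and Ern1f/fLyz2-Cre control cells of number 1 and at 46.0 and 40.7 in number 2. With IL-4 they were Rab13 (0.22), Rab19 (0.21), Rab9 (0.19), Rab27a (-0.15), Rab20 (-0.05) and Rab4b (-0.04). Rab13 was at 6.80 and 8.41 FPKM with IL-4 in number 1 and at 6.72 and 7.68 in number 2. Each of these 12 intervals included 0. For the interaction of genotype and IL-4 0 of 42 Rab genes were called (background 0%), and none had an unadjusted p under 0.05, beside 0.942% of all genes. The differences of response ran from -0.17 for Rab27a to 0.31 for Rab13, whose 95% interval was -0.15 to 0.76. For Rab19 the genotypes' responses differed by 0.15 (-0.28 to 0.59). The half-widths of these intervals ran from 0.34 to 1.13, with a median of 0.44.

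**Figure D4:**
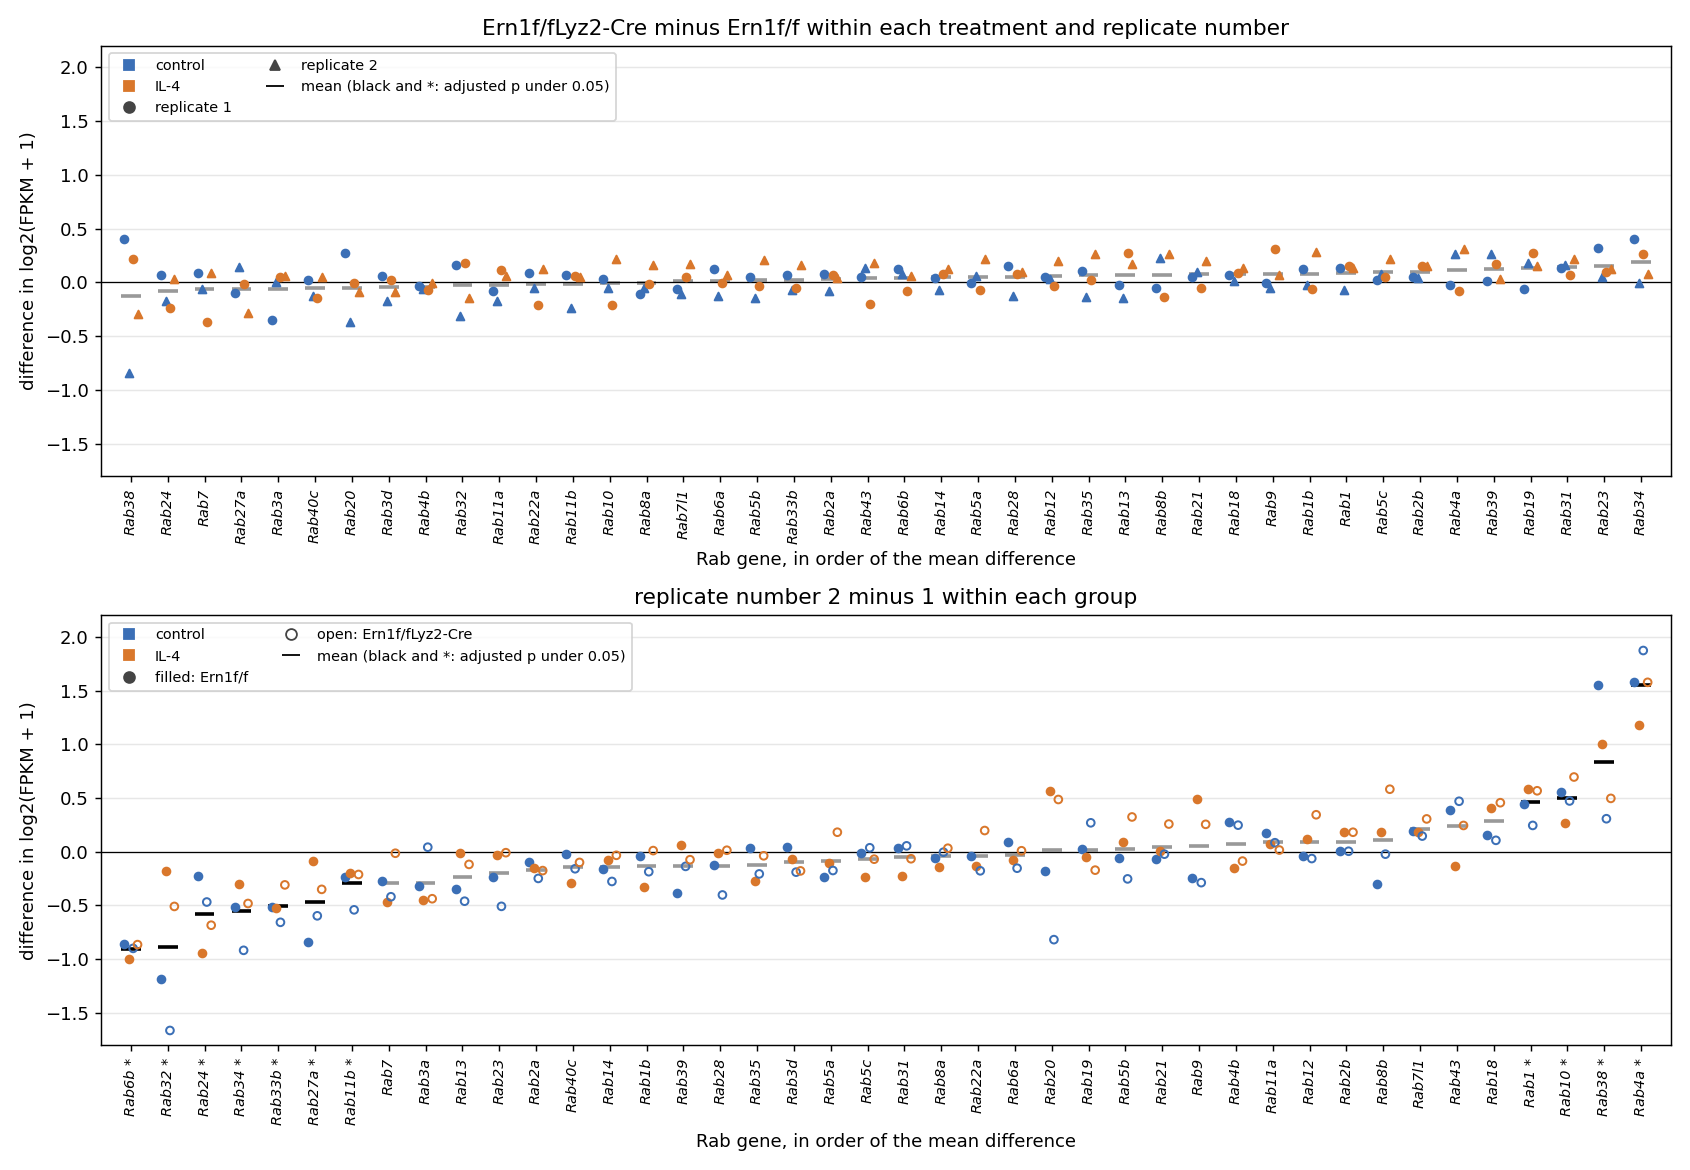
Differences in log2(FPKM + 1) for the 42 tested Rab genes between genotypes (top, 1 point per treatment and number) and between replicate numbers (bottom, 1 point per group), with the mean as a bar (black with an asterisk where the adjusted p is under 0.05). No mean in the top panel passes 0.19 in size, while those in the bottom panel run from -0.91 for Rab6b to 1.55 for Rab4a.

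Rab transcripts also differed between the replicate numbers. The first principal component of the 42 genes held 53.7% of the variance and separated the numbers, and the second, with 32.8%, separated IL-4 from control within each number. Along the first, too, IL-4 libraries lay apart from control libraries within each number, at -0.33 and -0.41 against -1.98 and -2.21 in number 1 and at 1.47 and 1.58 against 0.87 and 0.99 in number 2. Between numbers 2 and 1, 11 of 42 Rab genes (26.2%) were called, 4 higher and 7 lower, beside 33.4% of all tested genes, 10.1% higher and 23.3% lower. An unadjusted p under 0.05 was found for 16 Rab genes, beside 46.1% of all. The separate genotype label draws the same contrast, so the 2 cannot be told apart. Summed fibroblast and stromal markers also differed, at 133 to 799 FPKM in number 1 and 3.66 to 14.7 FPKM in number 2, and their part in these differences was not tested. Higher in number 2 were Rab4a by 1.55 ± 0.12 (SE) in log2(FPKM + 1) (adjusted p = 0.000543), Rab38, the relative of Rab32, by 0.84 ± 0.21 (adjusted p = 0.0245), Rab10 by 0.50 ± 0.09 (adjusted p = 0.0095) and Rab1 by 0.46 ± 0.09 (adjusted p = 0.0102). Rab38 was at 0.410 to 0.889 FPKM in number 1 and at 1.31 to 3.13 in number 2. Rab10 was at 48.4 to 56.2 and 67.7 to 78.9 FPKM, and the numbers did not overlap for it or for Rab1, Rab18, Rab4a and Rab38 on the higher side, beside 9.33% of all genes. On the lower side they did not overlap for Rab11b, Rab24, Rab2a, Rab33b, Rab6b and Rab7, beside 22.4%.

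Lower in number 2 were Rab6b (-0.91 ± 0.09, adjusted p = 0.0011), Rab32 (-0.88 ± 0.24, adjusted p = 0.0308), Rab24 (-0.58 ± 0.12, adjusted p = 0.0143) and Rab34 (-0.55 ± 0.11, adjusted p = 0.0116). To these came Rab33b, of the Golgi and the autophagosome, with -0.50, Rab27a with -0.47 and Rab11b, of slow recycling, with -0.30. Rab6b was at 2.19 to 3.23 FPKM in number 1 and at 0.681 to 1.27 in number 2. Rab24, which shares exons with another gene, was at 16.4 to 22.4 FPKM in number 1 and 11.1 to 13.9 in number 2. Under median-of-ratios scaling the median of all genes for this contrast moved by 0.110, from -0.107 to 0.003. The split of called Rab genes was then 6 higher and 4 lower (23.8%, beside 31.4% of all genes). Under upper-quartile scaling it was 6 higher and 5 lower (26.2%, beside 32.4%). Only Rab1, Rab10, Rab33b, Rab34, Rab4a and Rab6b were called whichever 1 library was left out.

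The machinery that runs the Rab cycle was followed in 4 gene lists, chosen with earlier results of these data known. For IL-4 averaged over the genotypes, 0 of 9 tested genes of the membrane cycle rose and 2 fell (22.2% called, beside 12.7% of all genes). These were Rabac1, a prenylated Rab acceptor (-0.56 ± 0.09 SE in log2(FPKM + 1), adjusted p = 0.0124), and Rabggta, a subunit of the prenyl transferase (-0.33 ± 0.07, adjusted p = 0.0355). Of 36 exchange factor genes 3 rose and 2 fell (13.9%). Rab3il1 rose by 0.99 ± 0.14 (adjusted p = 0.00907) and Dennd1b by 0.60 ± 0.11 (adjusted p = 0.0173). The Rab5 exchange factor Rin2 rose by 0.48 ± 0.10 (adjusted p = 0.0260). Dennd1c, of the same family as Dennd1b by name, went the other way, with -0.56 ± 0.07 (adjusted p = 0.00573, and 0.0403 without the block). Dennd4a, an exchange factor for Rab10, had -0.37 ± 0.09 (adjusted p = 0.0400). Of 31 GAP genes, 9.68% of which were called, 2 rose, Tbc1d16 by 0.93 ± 0.09 (adjusted p = 0.00250) and Tbc1d1 by 0.46 ± 0.07 (adjusted p = 0.0123), and Tbc1d9 had -0.42 ± 0.09 (adjusted p = 0.0305).

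Of 50 tested effector genes 3 rose and 4 fell with IL-4 (14%). The called shares of the effectors, exchange factors and GAPs were near the 12.7% of all genes, and that of the membrane cycle rests on 2 genes. Rilp, which links Rab7 on late endosomes to the dynein motor, rose by 0.60 ± 0.09 (adjusted p = 0.00889). The Rab5 effectors Appl1 and Zfyve20 (rabenosyn) rose by 0.42 ± 0.08 (adjusted p = 0.0233) and 0.34 ± 0.07 (adjusted p = 0.0244). Fmnl1 (-0.53), Hook2 (-0.37), Optn, an effector of Rab8 (-0.37), and Rabep2, an effector of Rab5 (-0.30), had adjusted p between 0.0299 and 0.0439. List medians ran from -0.136 for the membrane cycle to -0.046 for the exchange factors, beside -0.027 over all genes. Without the block 1 exchange factor, Dennd1c, was called and no gene of the other 3 lists. Within genotypes Tbc1d16 was called in both, and Rilp and Dennd1c in Ern1f/fLyz2-Cre cells. No gene of the 4 lists was called for genotype in either treatment, averaged or for the interaction, with or without the block.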

How the data were processed

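The authors deposited 1 table of gene-level FPKM per library, with confidence limits and a status for each gene. The submitters' processing notes name TopHat 1.4.1, Cufflinks 1.3.0 and mm10. Where the gene models came from is not given in the sources used here. Each table has 23838 rows and 23354 symbols, and FPKM of rows that share a symbol was summed.

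Values were analysed as log2(FPKM + 1), with a pseudocount of 1, which understates the change of low genes. The filter kept 10934 genes that reached 1 FPKM in 2 or more libraries. They were fitted together (limma 3.58.1, R 4.3.3, two-sided moderated test, eBayes with trend), with 4 group means and the replicate number as a block. Calls are at a Benjamini-Hochberg adjusted p under 0.05 over all of these genes. The labels give the same 2 numbers in every group. For each of the 6 pairs of groups, the gene-wise differences between the numbers correlated, with r from 0.69 to 0.83, which is a hint from the data and not from the design.

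The depth was read from the confidence intervals: 75.7% to 77.4% of genes under 60 fragments were then within 0.02 of a whole number of fragments. The fits did not use it. The scripts were tested on simulated data. Python 3.11.15 and matplotlib 3.10.9 drew the figures.

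Rab genes were named with values if called in a comparison other than the number, if among the 3 higher and 3 lower differences with 1 sign in both numbers, or if among the 3 highest levels of a class. For the number the 4 largest called differences on each side were named. Rab6b for IL-4, the genes of non-overlapping groups and the closest relatives were added after their values were seen. The members, classes, gene lists and tests were chosen with earlier results of these data known. Alternatives covered the block, the filter, the pseudocount, scaling, the variance model, gene status, rows per symbol, the genotype field, the libraries fitted and leaving out each library in turn.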

Additional observations from a re-analysis of the deposited data

Results flagged for a closer look

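For 7 Rab genes the IL-4 difference had one sign in both genotypes of replicate number 1 and the other sign in both genotypes of number 2. The share of all tested genes with this pattern was not computed, so the count is not a result about the Rab genes. The difference of number 2 from number 1 was tested in a fit added after the data were seen, on the log2(FPKM + 1) scale, and none of the 7 passed (limma, adjusted over all tested genes). In 5 of them the difference was negative in number 1 and positive in number 2. Rab8b had -0.20 in number 1 and 0.34 in number 2, which differed by 0.54 (adjusted p = 0.200). Rab5b had -0.11 and 0.25, which differed by 0.36 (adjusted p = 0.300), and Rab18 had -0.15 and 0.15, which differed by 0.30 (adjusted p = 0.281). Rab5a had -0.15 and 0.09, which differed by 0.24 (adjusted p = 0.430), and Rab21 had -0.08 and 0.10, which differed by 0.18 (adjusted p = 0.548). The other two had the opposite signs. Rab24 had 0.27 in number 1 and -0.19 in number 2, which differed by -0.47 (adjusted p = 0.197), and Rab5c had 0.01 and -0.15, which differed by -0.17 (adjusted p = 0.598).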

How the results depend on the processing

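For IL-4 averaged over the genotypes, 6 Rab genes were called (14.3%, beside 12.7% of all tested genes). Without the replicate block 1 was called (2.38%, beside 0.841%). There were 3 with no filter (5.26%, beside 3.96%) and 3 with a pseudocount of 5 (7.14%, beside 11.1%). Those with no filter were Rab19, Rab34 and Rab36, which the main fit did not test as it stayed under 1 FPKM. By the genotype field 13 were called (31%, beside 26.7%). Fewer Rab genes, and fewer of all genes, were called with any 1 library left out. In Ern1f/f cells 1 was called (2.38%, beside 2.12% of all genes), against 0 without the block or the filter (beside 0% and 0.017%). There were 2 (4.76%, beside 2.28% to 2.73%) with a pseudocount of 0.1, median-of-ratios scaling, array weights, status OK or only the compared groups. At least 5 FPKM in 2 libraries also gave 2 (5.71%, beside 3.5%). The genotype field gave 9 (21.4%, beside 20.7%). In Ern1f/fLyz2-Cre cells 2 were called (4.76%, beside 3.32% of all genes), against 0 without the block or the filter (beside 0.0549% and 0.238%). A pseudocount of 5 gave 1 (2.38%, beside 2.36%) and the genotype field 5 (11.9%, beside 11.6%). By the genotype field, which is the replicate number, 18 Rab genes were called for genotype averaged over treatments (42.9%, beside 47.9% of all genes), 11 with IL-4 (26.2%, beside 29.9%), 15 in control cells (35.7%, beside 34.9%) and 1 for the interaction (2.38%, beside 0.969%), against 0 by title and 0 with any 1 library left out. For the number, 11 were called, and 7 to 10 with 1 library left out. The causes of these changes were not tested, except that fewer libraries enter where some are left out.

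By the genotype field the sign turned for Rab12 for IL-4 in Ern1f/f (-0.022 in log2(FPKM + 1)). It also turned for genotype averaged over treatments for Rab31 (-0.050), Rab23 (-0.20) and Rab34 (-0.55). In control cells it turned for Rab11a (0.13), Rab7l1 (0.17), Rab39 (-0.26) and Rab23 (-0.37), and with IL-4 for Rab20 (0.53), Rab19 (-0.11) and Rab13 (-0.066). With 1 library left out, the genotype difference averaged over treatments ranged from -0.20 to 0.043 for Rab24 and from -0.19 to 0.062 for Rab27a. In control cells it ranged from -0.24 to 0.065 for Rab13, from -0.029 to 0.31 for Rab39 and from -0.019 to 0.40 for Rab23. With IL-4 it ranged from -0.40 to 0.10 for Rab27a, from -0.42 to 0.32 for Rab20, from -0.19 to 0.11 for Rab4b and from -0.11 to 0.48 for Rab9. Of 368 values with a library left out, 13 turned in sign, and of 568 under the other settings 11 did. Many of these values were far from the threshold in the main fit, so they are not counted by whether they kept their side of it. The lowest of the called genes, Rab39 and Rab4a, rest on as few as 41 and 40 fragments in a library.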
